A study of Mus musculus with 26 samples.

Results

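The comparison described here sets left ventricles of mice labelled as galectin-3 knockout (Gal3Ko, 8 libraries) against wild-type left ventricles (wt, 6 libraries), 14 of the 26 libraries of the series, over all 15249 genes of the count table. All mice are labelled C57BL6 and kept under standard housing. In a second pair of groups every mouse also overexpresses the kinase Mst-1 (gene Stk4), in a line the design text calls a dilated cardiomyopathy model: the double genotype (Mst1Gal3, 5 libraries) and Mst-1 overexpression alone (MstTg, 7 libraries). The labels give neither age nor sex, no breeding scheme, no promoter for the Mst-1 transgene and no statement that replicates are separate animals, so p-values measure the spread between these libraries. RNA was depleted of ribosomal RNA and sequenced as directional libraries. Tested genes were split by position: 483 on chromosome 14, where the galectin-3 gene Lgals3 lies, 14716 on other chromosomes, 49 with no position in the annotation, and Lgals3 itself.

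Galectin-3 is a secreted lectin that binds galactose-containing sugars on cell surface and matrix glycoproteins. Macrophages and injured tissue make most of it, and in the heart it is studied as a marker and mediator of fibrosis. A gene knockout is made on 1 chromosome of a founder strain, and the stretch of DNA that flanks the targeted gene can stay that of the founder through many generations of backcrossing. Genes near the target can then differ in sequence between knockout and control mice. For that reason chromosome 14 is described apart from the rest, and the labels do not say how the line was made.

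Library totals ran from 18580405 to 32663735 counts over the 14 libraries, so 1 count was 0.0306 to 0.0538 CPM (the count scaled to a common library size with TMM factors). The 10 ventricular cardiomyocyte markers summed to 54920 to 64200 CPM in Gal3Ko and 51520 to 56920 CPM in wt. Transcripts of the mitochondrial genome took 33.0% ± 3.64 of counts in Gal3Ko and 31.0% ± 2.36 in wt (SD, n = 8 and 6). Of 5 measures (this share, the total, the share of the 10 highest genes, the genes detected and the summed level of the atrial genes Sln, Myl7 and Myl4) none passed a two-sided exact permutation test over the 3003 splits. The lowest p was 0.0773 and its value adjusted over the 5 measures was 0.360. That atrial sum was 2.27 to 123 CPM in Gal3Ko and 1.19 to 33.1 CPM in wt, and it exceeded 30 CPM in Gal3Ko replicates 4, 5 and 8 and in wt replicate 5. Y-linked genes were counted in all 14 libraries.

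Lgals3 was scarce in both groups. It was at 2.14 CPM ± 0.369 in Gal3Ko and 1.64 CPM ± 0.495 in wt (SD, n = 8 and 6), with libraries at 1.47 to 2.74 CPM in Gal3Ko and 0.878 to 2.41 CPM in wt. The groups overlapped, and the log2 fold change of 0.41 ± 0.17 (SE) was not called by edgeR's quasi-likelihood test (95% interval 0.07 to 0.75, adjusted p = 0.619). The gene level therefore did not check the knockout labels in these 14 libraries, and Gal3Ko stands below for what the labels call knockout. In the other 12 libraries Lgals3 was at 2.54, 3.88 and 5.43 CPM in Mst1Gal3 and at 50.9, 55.1 and 60 CPM in MstTg (lowest, median and highest), with no overlap. Stk4, the other engineered gene, was at 21 to 25.9 CPM in Gal3Ko and 22.4 to 26.1 CPM in wt.

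Of all genes tested, 54 differed between Gal3Ko and wt at an adjusted p of 0.05 (0.354% of 15249), 27 higher in Gal3Ko and 27 lower (0.177% each). At an unadjusted p of 0.05 the count was 1015 genes (6.66%). Chromosome 14 held 30 of the 54 calls (6.21% of its 483 genes), 9 higher (1.86%) and 21 lower (4.35%). The other chromosomes held 23 (0.156% of 14716), 17 higher (0.116%) and 6 lower (0.0408%). The remaining call, A930018M24Rik, had no position in the annotation and was at 11.5 CPM ± 1.97 in Gal3Ko and 6.76 CPM ± 1.59 in wt. Its call ended without the libraries over the atrial limit (adjusted p = 0.114). The libraries of the 2 groups did not overlap in 44 genes (0.289%), 24 on chromosome 14 (4.97%) and 20 on other chromosomes (0.136%). Chromosomes 16 and 3 came next to chromosome 14, with 4 calls each.

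The calls on chromosome 14 lay around Lgals3 and thinned out with distance. They ran from Anxa7, 26.9 Mb before Lgals3, to Vwa8, 31.5 Mb after it, while tested genes reached from 39.4 Mb before to 76.6 Mb after. Of the 24 settings run for each, the call of Vwa8 ended in 16 and that of Anxa7 in 3. That of Epsti1, 30.5 Mb after Lgals3, held in all 24. Within 5 Mb of Lgals3 9 of 58 genes were called (15.5%), at 5 to 10 Mb 7 of 76 (9.21%), at 10 to 20 Mb 9 of 141 (6.38%), at 20 to 40 Mb 5 of 154 (3.25%) and beyond 40 Mb 0 of 54. All 54 genes beyond 40 Mb lie after Lgals3. Before Lgals3 the counts up to 40 Mb were 2 of 20, 0 of 4, 6 of 68 and 3 of 81, without a steady fall. After it they were 7 of 38, 7 of 72, 3 of 73 and 2 of 73.

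**Figure D1:**
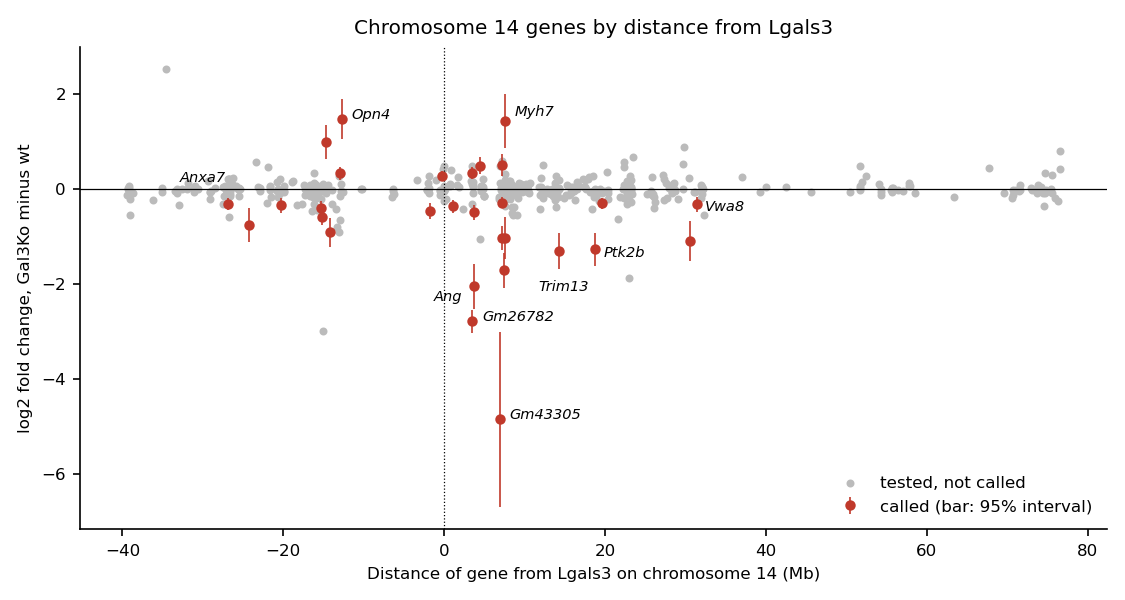
Log2 fold change (Gal3Ko minus wt, y axis) of the chromosome 14 genes against their distance from Lgals3 in Mb (x axis). Red points are the called genes with 95% intervals and grey points are tested genes that were not called. Ccnb1ip1, which has no finite estimate because wt has no counts, is not drawn. Called genes sit between 26.9 Mb before and 31.5 Mb after Lgals3, and both directions occur.

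Genes next to Lgals3 were mostly not called. On the near sides lie Mapk1ip1l, Socs4, an adaptor of receptor ubiquitination, Wdhd1, Gch1, the first enzyme of tetrahydrobiopterin synthesis, and Samd4, and then Dlgap5, Fbxo34, Atg14, Ktn1 and Gm6055, the 5 nearest tested genes on each side. Samd4, whose product binds RNA and represses translation, was the 1 call among these 10. It was at 150, 161 and 181 CPM in Gal3Ko and 122, 135 and 144 CPM in wt (lowest, median and highest), so that every Gal3Ko library exceeded every wt library. The log2 change was 0.28 ± 0.05 (SE, adjusted p = 0.00680). Mapk1ip1l, less than 0.1 Mb from Lgals3, was at 20.7 CPM ± 1.10 in Gal3Ko and 21.3 CPM ± 1.39 in wt, with an interval of 0.898 to 1.05-fold. Gch1 did not pass the test at 5.8 CPM ± 0.325 in Gal3Ko and 4.29 CPM ± 0.686 in wt (adjusted p = 0.0955), although its groups did not overlap.

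The lowest adjusted p-value of the comparison was that of Gm26782, an RNA annotated antisense to the telomerase-associated protein gene Tep1. It was at 1.4, 1.84 and 2.56 CPM in Gal3Ko and at 10.2, 13.2 and 14.7 CPM in wt. No libraries of the groups came near each other, and the log2 change was -2.78 ± 0.12 (SE, adjusted p = 2.80e-17). Tep1 itself was higher, at 31.3 CPM ± 2.48 in Gal3Ko and 24.5 CPM ± 2.45 in wt (0.35 ± 0.06, adjusted p = 0.00244). The strand setting of the counting is not given in the sources used here, so reads of these overlapping genes cannot be assigned with certainty.

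The angiogenic ribonuclease Ang was lower. It was at 0.472 CPM ± 0.235 in Gal3Ko and 1.90 CPM ± 0.448 in wt, without overlap (-2.04 ± 0.23, SE). Its neighbour Rnase4, which shares transcript structure with it on the same strand, was at 21.2 CPM ± 2.31 in Gal3Ko and 29.6 CPM ± 4.73 in wt. Mettl17, a mitochondrial ribosome assembly factor, rose to 13.1 CPM ± 1.21 in Gal3Ko, against 9.27 CPM ± 0.833 in wt. Prmt5, the arginine methyltransferase of splicing proteins, fell to 21.6 CPM ± 0.775 in Gal3Ko, against 26.2 CPM ± 1.77 in wt. Ccnb1ip1, a meiotic crossover factor, had 208 counts over the Gal3Ko libraries and 0 in all 6 wt libraries, which makes it at least 48.4-fold higher against a floor of 3 counts over the wt group. It overlaps Rpph1 on the same strand.

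Ptk2b, the calcium-regulated tyrosine kinase PYK2, was at 2.96, 3.23 and 4.62 CPM in Gal3Ko and at 4.57, 8.30 and 11.7 CPM in wt, where only wt replicate 5 reached the Gal3Ko range (-1.27 ± 0.17, adjusted p = 8.58e-05). Trim13, an endoplasmic reticulum ubiquitin ligase, was at 1.2 to 2.72 CPM in Gal3Ko and 3.30 to 5.55 CPM in wt. Epsti1, an interferon-inducible gene, was at 0.702 CPM ± 0.172 in Gal3Ko and 1.52 CPM ± 0.367 in wt. Wdfy4, needed in dendritic cells for cross-presentation, was at 5.35 CPM ± 1.56 in Gal3Ko and 9.99 CPM ± 1.89 in wt, and its call ended without the 6 libraries over the atrial limit (adjusted p = 0.0582). Ddhd1, a phospholipase, was at 12.4 CPM ± 1.63 in Gal3Ko and 17.1 CPM ± 2.29 in wt. Il17rd, a receptor that restrains fibroblast growth factor signalling, was at 9.90 CPM ± 1.09 in Gal3Ko and 12.5 CPM ± 0.981 in wt. Its call ended in 13 of the 24 settings run for it, among them the fit of these 2 groups alone (adjusted p = 0.107).

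Ppp1r3e, a glycogen-targeting subunit of protein phosphatase 1, was at 0.334, 0.576 and 0.856 CPM in Gal3Ko and 1.42, 1.84 and 2.52 CPM in wt. Bnip3l, a mitophagy receptor, fell to 28.8 CPM ± 1.83 in Gal3Ko, against 35.3 CPM ± 2.69 in wt. Opn4, the opsin melanopsin, was at 2.27, 3.02 and 3.51 CPM in Gal3Ko and 0.581, 1.08 and 1.43 CPM in wt, without overlap. The slow myosin heavy chain Myh7 was at 657, 847 and 944 CPM in Gal3Ko and at 85.1, 265 and 610 CPM in wt. Gal3Ko libraries were close together and wt libraries spread over a wide range, with replicate 5 highest and replicate 4 lowest. Its call (1.44 ± 0.28, adjusted p = 0.0191) ended in the fit of these 2 groups alone (adjusted p = 0.169) and without wt replicate 1, 3 or 6 (adjusted p = 0.0505 to 0.0703). The antisense Gm17428 lies in Myh7 and was lower, at 0.983 CPM ± 0.210 in Gal3Ko and 1.99 CPM ± 0.488 in wt. The adjacent fast myosin gene Myh6 was at 28180 CPM ± 1974 in Gal3Ko and 22620 CPM ± 2142 in wt and was not called (adjusted p = 0.0955).

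Libraries of 1 label were not alike along chromosome 14. Of the 12 called genes more than 5 Mb after Lgals3, wt replicate 5 was the wt library nearest to Gal3Ko in 9, among them Psmb5, Prmt5, Ptk2b, Bnip3l, Epsti1 and Myh7. For the 9 calls within 5 Mb of Lgals3 it was nearest in 2, and for the 9 more than 5 Mb before it in 1. This was noticed in the data and not tested. Without wt replicate 5 the count of calls was 80, with 36 on chromosome 14 and 43 on other chromosomes. Among the Gal3Ko libraries, replicate 2 stood nearest to wt for Anxa7, with 61.6 CPM against 42.2 to 51.5 CPM in the other 7, and for 2700060E02Rik, with 41.1 CPM against 22.8 to 30.6 CPM. It also has the lowest total.

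The 5 genes with the largest rises off chromosome 14 are near copies of chromosome 14 genes. Gm6768, Gm3375 and Gm10704 are processed pseudogenes of Ncoa4, a ferritinophagy receptor, Psmb5, a catalytic subunit of the proteasome, and 2700060E02Rik (Rtraf in the annotation). Rprl2 and Rprl3 are copies of Rpph1, the RNA of ribonuclease P. Coordinates are of GRCm38 and sequences of GENCODE M21 transcripts: Rpph1 at chr14:50807449-50807767 (minus strand), Rprl3 at chr8:3803069-3803358 (minus), Rprl2 at chr3:22251374-22251663 (plus), Ncoa4 at chr14:32159865-32179855 (plus), Gm6768 at chr12:119260978-119262855 (plus), Psmb5 at chr14:54614119-54618022 (minus), Gm3375 at chr7:3181093-3181888 (plus), 2700060E02Rik at chr14:19811351-19823824 (minus) and Gm10704 at chr3:88576410-88577139 (minus, overlapping Ssr2). The windows below are the ungapped stretches that hold the most differences, taken in the coding sequence for the 3 protein genes. They hold 1 or 2 differences in 60 bases for Gm6768, Gm3375 and Gm10704. For Rprl3 and Rprl2 they hold 7 and 8 in 100 bases. Capitals mark bases that differ from the chromosome 14 counterpart.
Rpph1: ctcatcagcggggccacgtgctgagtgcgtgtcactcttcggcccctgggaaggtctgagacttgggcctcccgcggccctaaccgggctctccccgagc
Rprl3: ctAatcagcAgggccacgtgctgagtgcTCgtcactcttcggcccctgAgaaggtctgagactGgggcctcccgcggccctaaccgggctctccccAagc
Rprl2: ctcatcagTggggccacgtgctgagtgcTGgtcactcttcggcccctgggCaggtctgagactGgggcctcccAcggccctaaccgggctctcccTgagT
Ncoa4: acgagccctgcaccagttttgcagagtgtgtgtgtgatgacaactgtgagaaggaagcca
Gm6768: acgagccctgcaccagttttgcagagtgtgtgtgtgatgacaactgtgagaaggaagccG
Psmb5: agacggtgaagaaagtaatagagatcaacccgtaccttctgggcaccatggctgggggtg
Gm3375: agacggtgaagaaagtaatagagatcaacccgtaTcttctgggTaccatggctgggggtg
2700060E02Rik: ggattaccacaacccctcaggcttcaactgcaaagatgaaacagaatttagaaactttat
Gm10704: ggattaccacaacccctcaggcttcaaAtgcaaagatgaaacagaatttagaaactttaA

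Over the whole alignment Gm6768 differed from Ncoa4 in 2 of 1878 bases and Gm3375 from Psmb5 in 8 of 795. Gm10704 differed from 2700060E02Rik in 10 of 730 bases, Rprl3 from Rpph1 in 14 of 236 and Rprl2 from Rpph1 in 15 of 236. Rprl3 and Rprl2 are each 290 bases long, so part of them did not align. Gaps were not counted as differences and held 21 bases in each of these 2 alignments and 1 base in that of Gm3375. In all, 61 of 14711 genes off chromosome 14 with a transcript had such a near copy among chromosome 14 transcripts (0.415%, at least 90% identity over at least 60% of their length). These 61 held 5 of the 23 calls off chromosome 14.

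Gm6768 was at 2.54, 4.64 and 6.26 CPM in Gal3Ko and at 0, 0.142 and 0.197 CPM in wt, while Ncoa4 was at 12.1, 16.0 and 20.8 CPM in Gal3Ko and 22.1, 23.8 and 26.2 CPM in wt. The copy was high in all 8 Gal3Ko libraries and the counterpart low in all 8, with no overlap in either gene. Log2 changes were 5.23 ± 0.43 for Gm6768 and -0.58 ± 0.08 for Ncoa4 (SE, adjusted p = 3.74e-13 and 8.58e-05). For the next pair, Gm3375 was at 3.07, 4.23 and 5.09 CPM in Gal3Ko, against 0, 0 and 2.33 CPM in wt. Psmb5 was at 7.71, 9.22 and 11.0 CPM in Gal3Ko and 14.9, 18.9 and 21.5 CPM in wt. In wt replicate 5 Gm3375 had 51 counts, against 0 or 1 in the other 5 wt libraries, and Psmb5 was lowest of wt there. The change in Gm3375 was 3.43 ± 0.64 with that library and 8.86 without it, and the call ended in the fit of the 2 groups alone (adjusted p = 0.135).

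Gm10704 was at 0.0667, 0.782 and 0.953 CPM in Gal3Ko and 0, 0.0242 and 0.0986 CPM in wt. The lowest Gal3Ko value is that of replicate 2, the library in which 2700060E02Rik was highest. Rprl3 was at 38.3, 43.6 and 66.5 CPM in Gal3Ko and at most 0.0753 CPM in wt, where all 6 libraries together held 5 counts. Rprl2 had 615 counts over Gal3Ko and 3 over wt, a ratio of 143 with an exact 95% interval of 48.7 to 696 that covers counting error only. Rpph1 itself was at 1509 CPM ± 325 in Gal3Ko and 1868 CPM ± 732 in wt and was not called (adjusted p = 0.890).

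**Figure D2:**
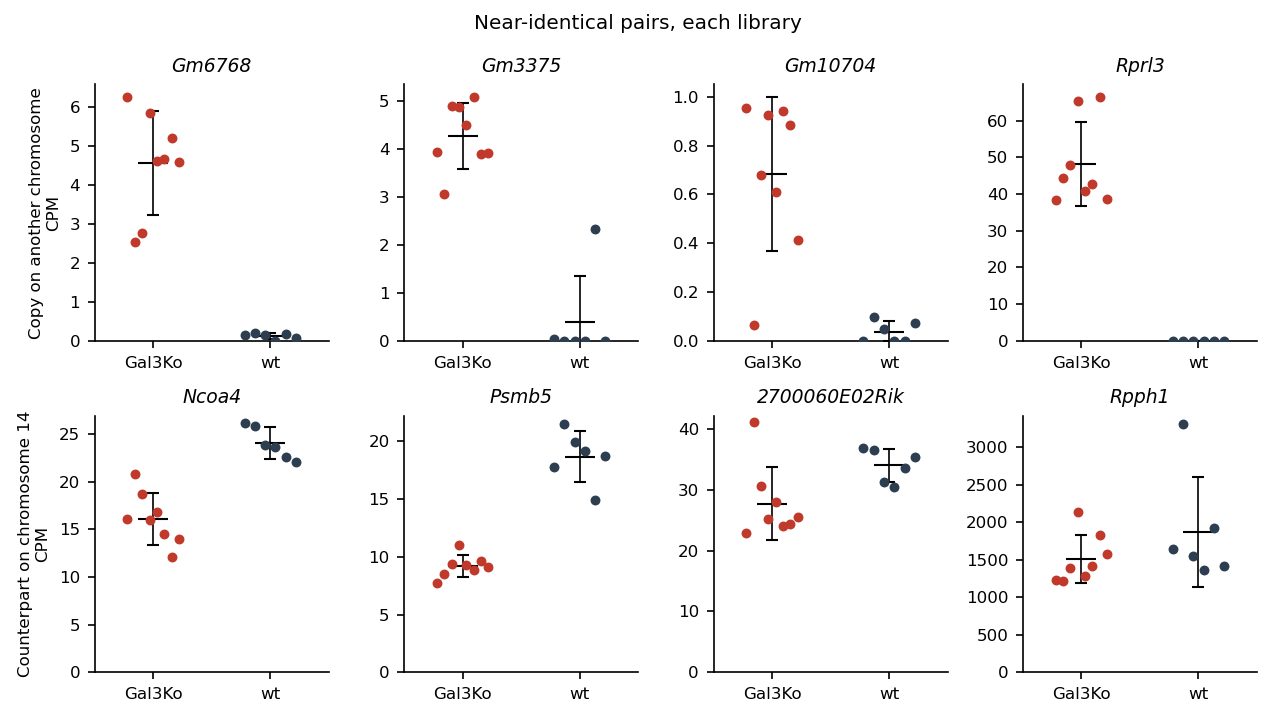
Level in CPM (y axes, from 0) of 4 copies on other chromosomes (top row) and their chromosome 14 counterparts (bottom row) in each Gal3Ko and wt library. Points are libraries, and black marks are means with SD. Copies are at or near 0 in wt except Gm3375 at 2.33 CPM in wt replicate 5, and Ncoa4 and Psmb5 are lower in every Gal3Ko library than in any wt library.

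When each copy was summed with its counterpart, none of the 4 sums was called. Among the counterparts only Ncoa4 and Psmb5 had a call to lose. Rpph1 (adjusted p = 0.89) and 2700060E02Rik (adjusted p = 0.194) were not called before summing either. The sum of Ncoa4 and Gm6768 was 20.7 CPM ± 2.08 in Gal3Ko and 24.2 CPM ± 1.70 in wt (-0.23 ± 0.07, adjusted p = 0.189). That of Psmb5 and Gm3375 was 13.5 CPM ± 1.39 in Gal3Ko and 19.1 CPM ± 1.54 in wt (-0.50 ± 0.12, adjusted p = 0.102). For 2700060E02Rik with Gm10704 the log2 change was -0.27 ± 0.08 (adjusted p = 0.294), and for Rpph1 with Rprl2 and Rprl3 -0.26 ± 0.21 (adjusted p = 0.925). This way of counting was chosen after the copies had been seen. How multi-mapping reads were counted is not given in the sources used here.

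The other 18 calls off chromosome 14, 12 higher and 6 lower among 14655 genes (0.123%), were small. Their log2 changes had sizes of 0.26 to 1.34, and in 5 of the 18 the groups did not overlap. Alox5, the enzyme that starts leukotriene synthesis, was at 13.8, 18.0 and 20.7 CPM in Gal3Ko and 11.5, 12.3 and 13.8 CPM in wt. Its groups touched at the lowest Gal3Ko and the highest wt library (0.53 ± 0.08, adjusted p = 0.000197). Slc16a7, a monocarboxylate transporter, was at 14, 15.3 and 20.7 CPM in Gal3Ko and 9.68, 10.8 and 13.5 CPM in wt (0.54 ± 0.10, adjusted p = 0.00650). Kcne1, a subunit of the slow delayed rectifier potassium channel, was at 3.42, 4.58 and 6.15 CPM in Gal3Ko and 1.16, 2.5 and 3.35 CPM in wt (0.97 ± 0.20). Rph3al, a Rab effector of exocytosis, was at 4.8 CPM ± 0.755 in Gal3Ko and 3.37 CPM ± 0.225 in wt.

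Smaller rises off chromosome 14 were those of Mtr, the methionine synthase, Setbp1, Ano10, Tfpi, an inhibitor of coagulation, and Abhd18. Tfpi was at 56.1 CPM ± 4.97 in Gal3Ko and 42.9 CPM ± 7.53 in wt, and Abhd18 at 56.9 CPM ± 6.95 in Gal3Ko and 41.5 CPM ± 7.51 in wt. The 6 genes that fell were Ankrd35, the muscle protease gene Capn3, the transcription factor genes Etv5 and Hes1, the lipocalin gene Apod and the prion protein gene Prnp. Hes1, an effector of Notch, was at 10.1, 12.8 and 14 CPM in Gal3Ko and 14.3, 17.7 and 22.6 CPM in wt, without overlap. Etv5, an effector of fibroblast growth factor signalling, was at 9.16 CPM ± 1.09 in Gal3Ko and 13.0 CPM ± 2.86 in wt. The other 3 calls were gene models: Gm42615 and Gm43605 lie within Ppargc1a, and Gm26546 overlaps Gnptab.

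Few of these calls held in every setting. When the test was run without chromosome 14 and without the 61 near copies, 4 of 14704 genes were called: Alox5 and Slc16a7 as higher, Etv5 as lower, and A930018M24Rik, which has no position, as higher. Their adjusted p-values there were 0.0029, 0.0465, 0.0465 and 0.0268. Over the settings that kept a gene, 13 of the 30 chromosome 14 calls and 6 of the 23 others held in each. Among the 18 calls off chromosome 14 with no near copy these were Alox5 and Slc16a7, each over 26 settings. The rest of the 6 were the near copies Rprl2, Rprl3, Gm6768 and Gm10704. For them and for chromosome 14 genes only 23 or 24 settings applied, so the counts are not on equal terms.

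The same genotype difference can be read a second time in Mst1Gal3 against MstTg, which uses none of the 14 libraries. There 746 genes were called (4.89%), with 75 of the 483 genes on chromosome 14 (15.5%) and 668 on other chromosomes (4.54%). Both comparisons take their dispersion from the same fit. Of the 30 chromosome 14 calls of Gal3Ko against wt, 29 had the same sign and 22 were called in the same direction. Of the 18 calls elsewhere with no near copy, 9 had the same sign and 2, Alox5 and Apod, were called in the same direction. The 5 near copies were all called again, as higher. A930018M24Rik was called again as well (1.47 ± 0.18, adjusted p = 3.06e-06). Across genes, which are not independent replicates, the log2 changes of the 2 comparisons had a Pearson correlation of 0.633 over 482 genes of chromosome 14 and 0.334 over 14711 others. Those others include the 5 near copies, whose changes were large in both comparisons, and the correlation without them was not computed.

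Opn4 was at 1.19 CPM ± 0.384 in Mst1Gal3 and 0.401 CPM ± 0.176 in MstTg, a log2 change of 1.53 ± 0.26 beside 1.48 ± 0.21 in Gal3Ko against wt. Gm26782 was at 2.23 to 2.76 CPM in Mst1Gal3 and 11.3 to 17.5 CPM in MstTg. Alox5 was at 4.68 to 5.79 CPM in Mst1Gal3 and 3.25 to 4.48 CPM in MstTg, lower in both than in either group without Mst-1 (0.43 ± 0.10, adjusted p = 0.00557). Apod was at 15.2 CPM in Mst1Gal3 and 27.6 CPM in MstTg by their medians (-0.87 ± 0.09, adjusted p = 1.15e-07). For 6 of the called genes the difference between the 2 comparisons was itself called. These were Ptk2b, Ddhd1 and Myh7 on chromosome 14 and Kcne1, Capn3 and Abhd18 elsewhere. Over all genes that difference was called in 100 (0.656%). The 6 come from genes selected by Gal3Ko against wt, which is part of the difference, so the 2 counts are not on equal terms. Kcne1 was at 1.29 CPM ± 0.200 in Mst1Gal3 and 2.12 CPM ± 0.732 in MstTg, a change of -0.73 ± 0.24 against 0.97 ± 0.20 in Gal3Ko against wt (difference -1.70 ± 0.31, adjusted p = 0.00844). Myh7 was at 1049 CPM ± 147 in Mst1Gal3 and 1654 CPM ± 630 in MstTg, also opposite in sign to Gal3Ko against wt (difference -2.10 ± 0.41, adjusted p = 0.0193).

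**Figure D3:**
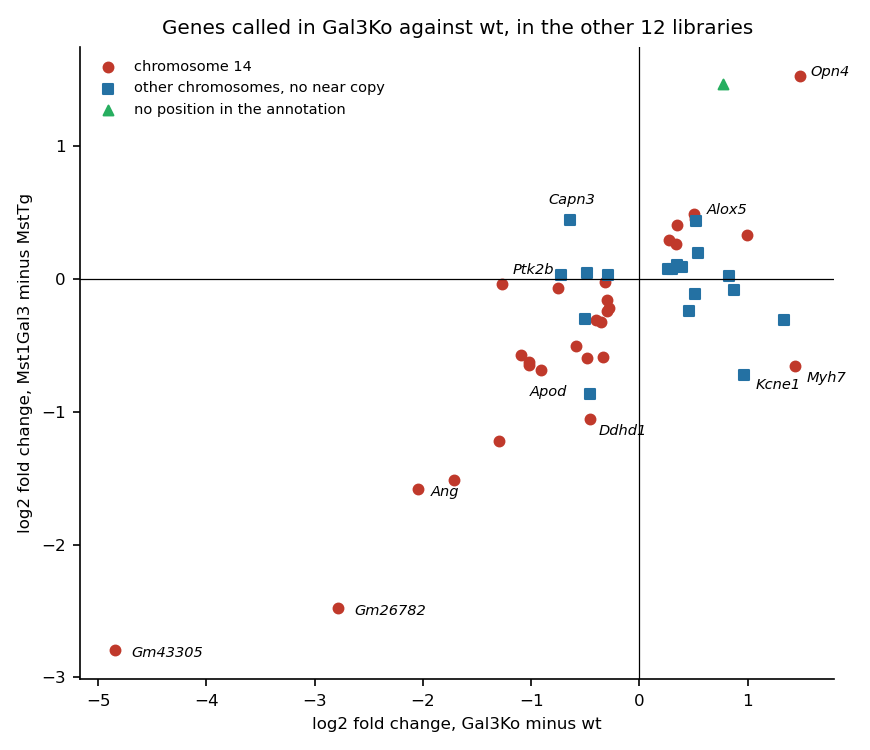
Log2 fold change of Gal3Ko minus wt (x axis) against that of Mst1Gal3 minus MstTg (y axis) for genes called in Gal3Ko against wt, apart from the 5 near copies and Ccnb1ip1. Red circles are chromosome 14 genes, blue squares the 18 genes of other chromosomes and the green triangle A930018M24Rik. Myh7 is the 1 chromosome 14 gene drawn that has opposite signs on the axes, and of the 18 blue squares 9 have the same sign.

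**Figure D4:**
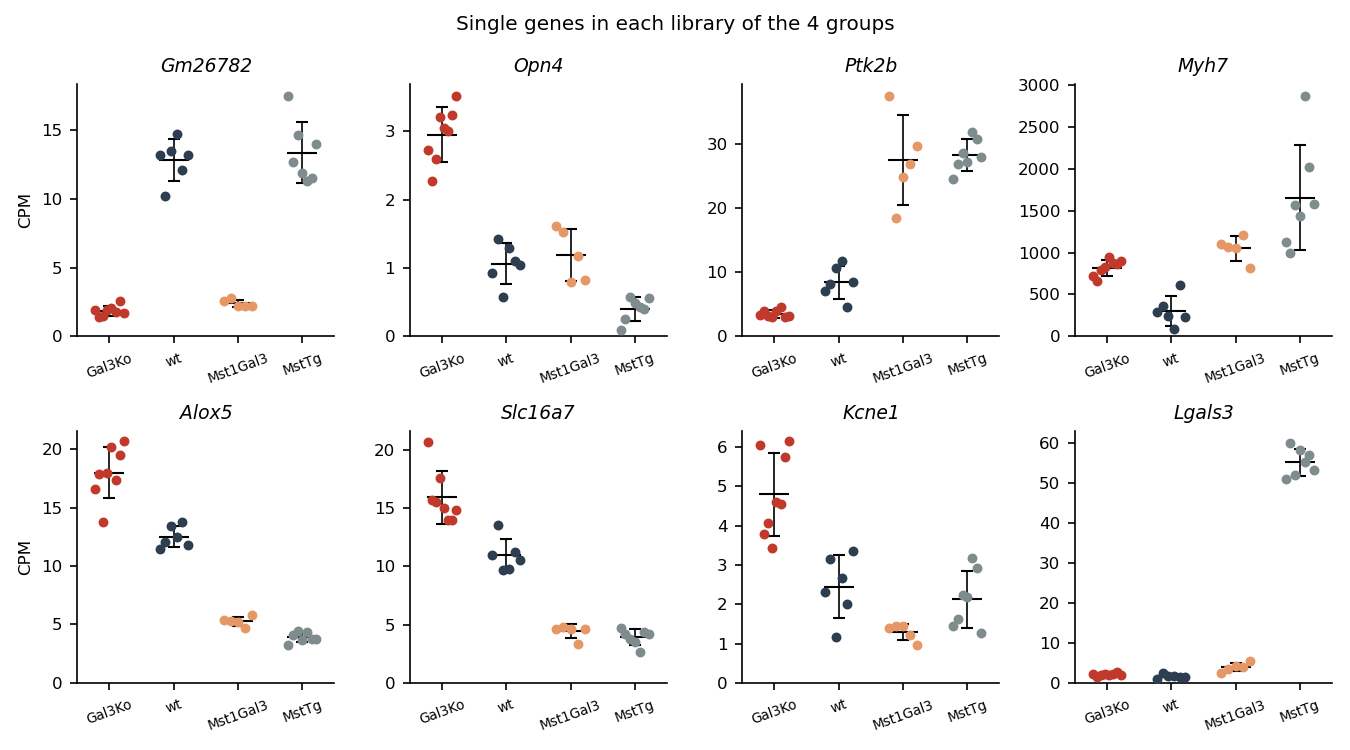
Level in CPM (y axes, from 0) of 8 genes in each library of Gal3Ko, wt, Mst1Gal3 and MstTg, with means and SD in black. Gm26782 and Opn4 differ in the same direction in both pairs of groups, Myh7 and Kcne1 in opposite directions, and Lgals3 is at 50.9 to 60 CPM in MstTg and at 5.43 CPM or less elsewhere.

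The data also set a limit on the size of a difference, counted here over all genes, called ones included. The 95% interval of the fold change lay wholly within 1.5-fold either way for 12355 of 15249 genes (81.0%) and within 2-fold for 14633 (96.0%). Off chromosome 14 the share within 1.5-fold was 81.2%, and on it 79.5%. Each interval holds for its gene alone. Adjusted over all genes, 2 one-sided tests against 1.5-fold placed 12851 genes inside that range. The median interval reached 1.14-fold to either side of its estimate. At the other end, 8 genes off chromosome 14 and 15 on it had an interval wholly beyond 1.5-fold. The 8 include the 5 near copies of chromosome 14 genes. They also include Ccl12, which was not called, as these intervals are not adjusted over genes.

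The limits followed the level of the gene. Off chromosome 14 the median interval reached 1.48-fold to either side for genes under a mean of 1 CPM, 1.21-fold at 1 to 10 CPM, 1.10-fold at 10 to 100 CPM and 1.09-fold over 100 CPM. The share of genes within 1.5-fold was 15.9%, 80.6%, 98.2% and 99.2% in the same order. No gene off chromosome 14 with a mean over 100 CPM was called, of 1062. In bulk tissue fewer cells of a type and less RNA per cell cannot be told apart. The limits hold for the level of a gene relative to the rest of its library, and not for the amount of RNA per ventricle.

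Over 38 lists of cardiac, matrix, immune and metabolic genes, 580 of 641 members were measured and 4 were called (0.69%, beside 0.354% of all genes): Psmb5 and Myh7 on chromosome 14 and Alox5 and Kcne1 elsewhere. Of the measured members 80.3% lay within 1.5-fold and 92.8% within 2-fold, beside 81.0% and 96.0% of all genes. Their median log2 change was -0.024, beside 0.0016 over all genes.

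Among the lectins, none of the 5 measured members of the galectin list was called and 4 lay within 1.5-fold. Galectin-1 (Lgals1) was at 64.7 CPM ± 7.60 in Gal3Ko and 72.3 CPM ± 8.02 in wt, with an interval of 0.799 to 1.003-fold. Galectin-8 (Lgals8) was within 0.894 to 1.05-fold and galectin-9 (Lgals9) within 0.807 to 1.04-fold. The galectin-3 binding protein Lgals3bp was at 19.1 CPM ± 3.19 in Gal3Ko and 22.7 CPM ± 5.62 in wt (0.701 to 1.01-fold). Lgals4 had the widest interval of the list, 0.909 to 1.54-fold. Of 20 described surface and matrix ligands of galectin-3, 18 lay within 1.5-fold, and the exceptions were Tfrc, the transferrin receptor, and Trem2.

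In the fibrosis and extracellular matrix list 0 of 38 genes were called and 32 lay within 1.5-fold, with a median of -0.11. The fibrillar collagen gene Col1a1 was at 84.7, 123 and 152 CPM in Gal3Ko and 97.9, 135 and 213 CPM in wt, with an interval of 0.695 to 1.11-fold. Col3a1 was within 0.748 to 1.03-fold and the matricellular gene Postn within 0.731 to 1.14-fold. Ctgf lay within 0.730 to 1.15-fold, and Tgfb1, the main fibrogenic cytokine, within 0.878 to 1.13-fold at 19.6 CPM in Gal3Ko and 19.7 CPM in wt. Fmod reached farthest, from 0.913 to 2.96-fold. The 14 measured resident fibroblast markers all lay within 1.5-fold.

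Of 27 macrophage markers none was called and 20 lay within 1.5-fold, with a median of -0.17. Adgre1, which encodes F4/80, was at 11.2, 12.4 and 15.8 CPM in Gal3Ko and 10.3, 14.4 and 17.9 CPM in wt (0.759 to 1.04-fold). Cd68 was within 0.736 to 1.11-fold, the resident macrophage gene Cd163 within 0.812 to 1.21-fold and Ccr2, of monocyte-derived cells, within 0.772 to 1.29-fold. Cytokines and chemokines were less well bounded, with 5 of 18 within 1.5-fold, a median log2 change of -0.28 and none called. Ccl12, a monocyte chemoattractant, was at 0.237 CPM in Gal3Ko and 0.651 CPM in wt, with an interval of 0.212 to 0.621-fold and no call (adjusted p = 0.0955). Of the neutrophil markers 2 of 12 and of the lymphocyte markers 1 of 16 were in the table, so those cells were hardly measured. In the interferon list none of 24 genes was called and 17 lay within 1.5-fold. The median log2 change of those 24 was -0.13 and their changes ranged from -0.65 to -0.0040, all below 0. This was not particular to the interferon list. All 15 endothelial markers (-0.39 to -0.0080) and all 5 measured mesothelial markers (-0.87 to -0.047) were below 0 too.

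Of 12 fetal and hypertrophic genes only Myh7 was called and 9 lay within 1.5-fold. The natriuretic peptide gene Nppa was at 47.1, 61.1 and 129 CPM in Gal3Ko and 44.5, 74.8 and 108 CPM in wt (0.709 to 1.32-fold). Nppb was within 0.719 to 1.11-fold, and Atp2a2, the calcium pump of the sarcoplasmic reticulum, within 0.914 to 1.10-fold. Skeletal actin, Acta1, was at 40.9, 93.7 and 172 CPM in Gal3Ko and 81.7, 199.8 and 342 CPM in wt, with overlap. It was not called (-1.17 ± 0.31, adjusted p = 0.147), and its interval of 0.285 to 0.693-fold did not reach 1.

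**Figure D5:**
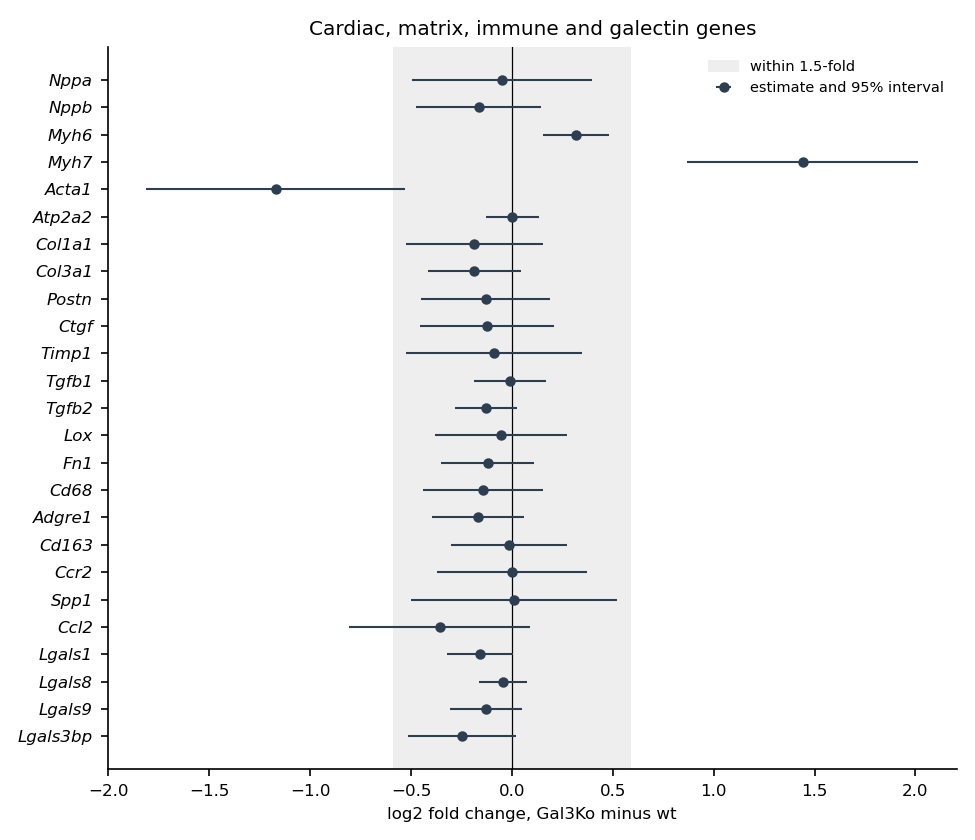
Log2 fold change (Gal3Ko minus wt, x axis) with 95% intervals for 25 cardiac, matrix, immune and galectin genes, and the range within 1.5-fold in grey. Intervals of Myh7, Acta1 and Ccl2 leave the grey range, and of these Myh7 alone was called.

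Metabolic lists were tightly bounded. All 36 nuclear-encoded respiratory chain genes, all 17 genes of the citric acid cycle, all 22 of glycolysis and glucose uptake, all 22 antioxidant genes and all 17 of autophagy and lysosome lay within 1.5-fold. So did 28 of 30 genes of fatty acid oxidation, where Pdk4, an inhibitor of pyruvate dehydrogenase, was at 692 CPM in Gal3Ko and 432 CPM in wt with an interval of 1.03 to 2.5-fold and no call (adjusted p = 0.738). Of 24 proteasome subunits 23 lay within 1.5-fold, and the exception was Psmb5. In the Hippo and YAP/TEAD target lists 19 of 21 and 20 of 21 genes lay within 1.5-fold. Endothelial markers counted 14 of 15 within that range, smooth muscle and pericyte markers 8 of 12, and ion channel and calcium genes 20 of 23.

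Other lists were less well bounded. None of the 6 red blood cell genes lay within 2-fold, and their sum was 27.7 to 385 CPM in Gal3Ko and 34.3 to 336 CPM in wt. Of 14 circadian clock genes 5 lay within 1.5-fold, of 12 immediate early genes 4, of 8 atrial markers 4 and of 21 cell cycle genes 13. Hspa1b, a heat shock gene, was at 6.91 CPM in Gal3Ko and 3.08 CPM in wt with an interval of 0.655 to 6.61-fold. The clock gene Ciart was at 1.42 CPM in Gal3Ko and 3.28 CPM in wt (0.209 to 0.919-fold, adjusted p = 0.673).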

How the data were processed

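RNA of mouse left ventricles was measured in 26 libraries, and 14 of them enter the comparison. Per the labels, libraries were strand-specific, made from 200 ng of RNA after removal of ribosomal RNA. Reads were handled with bcl2fastq (2.19.1.403), STAR and featureCounts on GRCm38, per the submitters' processing notes. Those notes give no other version, no annotation, no strand option and no rule for reads that map to several places. The authors deposited raw counts per gene without normalization, and no gene had a mean count below 10.0. All columns matched a sample title.

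Counts were tested with edgeR 4.0.16 in R 4.3.3: TMM factors, a robust glmQLFit and the two-sided glmQLFTest. P-values were adjusted by Benjamini-Hochberg across all 15249 genes, and a gene was called at 0.05. The model had 1 coefficient for each of the 4 groups and 22 residual degrees of freedom. The 95% intervals came from the same fit, and a gene was bounded when its interval lay within 1.5-fold. Positions came from GENCODE M21 by gene identifier. Near copies were found with BLAST 2.17.0 (megablast of transcripts, at least 90% identity over at least 60% of the length). The steps were tested on simulated data. No libraries of a group were duplicates (lowest chi-square per degree of freedom 7.97). Intervals on counts cover counting error only.

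Genes were named by rule: Lgals3 and Stk4; among calls that averaged 1 CPM or more and carry no gene-model name, the 10 largest changes each way on chromosome 14 and the 12 each way elsewhere; the 5 nearest genes on each side of Lgals3; fixed readout genes; called list members and the widest interval of a list; and the copies of Rpph1. Others were chosen after their values were seen. Members, lists and tests were chosen with earlier results of these data known. Alternatives used DESeq2 1.42.0, limma 3.58.1, other scalings, filters, libraries and gene sets.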

Additional observations from a re-analysis of the deposited data

Results flagged for a closer look

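Dixon's test was applied to 156 sets of 8 Gal3Ko or 6 wt values and set apart 18 single libraries, where chance alone marks about 1 in 20. Gal3Ko replicate 2 stood apart in 6 of them and also had the lowest total. It was high in 2700060E02Rik at 41.1 CPM, Mapk1ip1l at 23.0 CPM and Gm6055 at 1.94 CPM, low in Mmrn2 at 40.8 CPM and Hes1 at 10.1 CPM, and had the fewest genes detected, 15194. Gal3Ko replicate 7 was low in Capn3 at 1.68 CPM. The atrial sum stood apart in Gal3Ko replicate 8 at 123 CPM and in wt replicate 5 at 33.1 CPM. In wt replicate 5 Gm3375 was high at 2.33 CPM and Ccr2 low at 1.92 CPM. In wt replicate 4 Col1a1 was high at 213 CPM, Lgals9 at 16.6 CPM and Rprl2 at 0.103 CPM, which is 2 counts. In wt replicate 2 Rnase4 was high at 39.1 CPM and Rpph1 at 3308 CPM. Stk4 was high in wt replicate 6 at 26.1 CPM, and the 10 highest genes took 44.2% of counts in wt replicate 1.

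For 8 named genes the knockout difference changed with the Mst-1 genotype, as the interaction term of the fit, (Mst1Gal3 minus MstTg) minus (Gal3Ko minus wt), was called. It was -4.22 for Lgals3, -0.598 for Ddhd1, 1.23 for Ptk2b and -2.10 for Myh7 on chromosome 14, and -1.70 for Kcne1, 1.08 for Capn3, -0.698 for Abhd18 and -0.600 for Lgals9 elsewhere, on the log2 scale. Over all genes the term was called in 100 of 15249 (0.656%). Many named genes were chosen by their call in Gal3Ko against wt, which is part of the term, so the 2 counts are not on equal terms. Lgals3 was scarce without Mst-1, at 2.14 CPM in Gal3Ko and 1.64 CPM in wt.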

How the results depend on the processing

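The count of 54 calls was 89 by DESeq2, 88 by limma-voom with quality weights, 33 in the fit of the 2 groups alone and again 33 without the libraries with atrial transcripts, 30 at an adjusted p of 0.01, 14 without the genes of chromosome 14 and 4 without those and their near copies. The 23 calls off chromosome 14 were 46, 47, 9, 13, 8, 13 and 3 in the same settings, and 15 with copies summed with their counterparts. The 30 on chromosome 14 stayed within 1.5 times of that count in every setting run. Leaving out 1 library gave 38 to 80 calls in all, 24 to 36 on chromosome 14 and 12 to 43 elsewhere; 38 was reached without wt replicate 3 or 4 and 80 without wt replicate 5, and off chromosome 14 the counts were 14 without Gal3Ko replicate 5, 13 without wt replicate 3 and 12 without wt replicate 4. The genes within 1.5-fold ranged from 11880 to 12280 in those fits. For Mst1Gal3 against MstTg the count was 356 at an adjusted p of 0.01 and 469 to 1040 with 1 library left out, 469 being without Mst1Gal3 replicate 1; calls repeated there were 17 to 25 on chromosome 14 and 6 to 8 elsewhere, and elsewhere 2 with copies summed and 1 without chromosome 14 and near copies. With 1 library left out the atrial sum was 9.761 to 28.05 CPM higher in Gal3Ko, and without wt replicate 5 it passed the exact permutation test (28.05 CPM, adjusted p = 0.0466). Causes were not tested. Gal3Ko and wt share replicate numbers with nothing in the labels to say what a number marks. Deviations of the 6 same-numbered libraries correlated at -0.0178 to 0.220, over 0.1 in 4, and 4 of the 6 Gal3Ko libraries correlated best with the wt library of their own number, a hint from the data and not from the design. With the replicate block 42 genes were called, 26 on chromosome 14 and 15 elsewhere, and of the calls followed gene by gene 14 ended, among them Myh7 (adjusted p = 0.0600), Prmt5 (0.0757), Kcne1 (0.0823) and Tfpi (0.0897). Depth limits genes under 1 CPM, few of which could be bounded.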
